A study of Arabidopsis thaliana with 6 samples.

Results

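The 8 ATG18 genes of *Arabidopsis thaliana* (ATG18A to ATG18H), with ATG2 and ATG9, form the lipid supply arm of autophagy, and their transcripts were followed here in *lon1-2atg5-1* and *atg5-1* seedlings. The 10 genes were taken by their gene identifiers out of 27444 genes in the deposited tables. The series holds 3 libraries of *atg5-1*, a T-DNA insertion mutant of ATG5, and 3 of *lon1-2atg5-1*, which carries the same *atg5-1* insertion and a T-DNA insertion in LON1, the gene of the mitochondrial Lon1 protease. All plants were of the Columbia-0 background and were grown without treatment in a cycle of 16 h light and 8 h dark. Whole seedlings were used, 10 days old in the methods of the study and 7 days old in the text of the series. Each mutation is represented by 1 insertion allele, and no wild-type or *lon1-2* library was analysed here. Every difference below therefore lies between the *lon1-2atg5-1* and the *atg5-1* plants. The effect of *lon1-2* cannot be told apart from other differences between the lines or their cultures.

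Autophagy wraps cytoplasm in a double membrane, the autophagosome, and delivers it to the vacuole. The ATG18 proteins are beta-propellers that bind phosphatidylinositol phosphates on the growing membrane. Studies in yeast and human cells place them beside ATG2, a rod-shaped protein that moves lipids from the endoplasmic reticulum, and ATG9, a multi-span membrane protein that travels on vesicles and exchanges lipids between the leaflets. In *Arabidopsis*, ATG18A is the best studied member and is required for autophagosomes in starvation and senescence. ATG5 acts in another arm, the conjugation of ATG8 to lipid, which *atg5-1* lacks.

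The ATG18 genes divide by their coding sequence. ATG18A to ATG18E encode short proteins of 366 to 425 codons, and ATG18F, ATG18G and ATG18H encode 763, 959 and 927 codons, the longer forms being those with a BCAS3-type region after the propeller. In yeast and human relatives the lipid is held by the FRRG motif, whose paired arginines bind the phosphate groups. Its codons were searched as FRRG, LRRG and VRRG in the longest coding sequence of each of the 8 genes, the last form being added after the sequences were read, and 5 of the 8 genes held a match. The 5 stretches below are spliced coding sequence of TAIR10.1, written 5′ to 3′, with the 12 bases of the motif in capitals and 12 bases on each side, and they are shown as the stretch that corresponds in letters to the lipid-binding motif. With FRRG and LRRG alone, only ATG18B and ATG18E would have matched.
ATG18A: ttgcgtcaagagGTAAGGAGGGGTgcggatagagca
ATG18B: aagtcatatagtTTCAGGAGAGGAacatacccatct
ATG18C: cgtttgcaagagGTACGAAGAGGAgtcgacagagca
ATG18D: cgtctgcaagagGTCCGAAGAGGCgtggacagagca
ATG18E: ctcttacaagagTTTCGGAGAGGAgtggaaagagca

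The ATG18A stretch (VRRG, from codon 287) lies on the minus strand at chr3:23219514-23220264, that of ATG18B (FRRG, from codon 219) on the minus strand at chr4:14905968-14906081, and that of ATG18C (VRRG, from codon 240) on the plus strand at chr2:17033391-17033498. Those of ATG18D (VRRG, from codon 244) and ATG18E (FRRG, from codon 243) lie at chr3:20927591-20927873 on the plus strand and chr5:1525326-1525485 on the minus strand. Every stretch is interrupted by an intron in the genome. In ATG18A, ATG18C, ATG18D and ATG18E the intron stands directly before the first codon of the motif, and in ATG18B it stands earlier, after the third base of the stretch. ATG18C and ATG18D shared 32 of the 36 bases, the most of any pair, and ATG18B shared 13 to 16 bases with each of the others. No match was found in ATG18F, ATG18G or ATG18H, which says only that these codons are not in their coding sequences.

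The genes lie on all 5 chromosomes. In TAIR10.1, ATG18A (AT3G62770) lies on chromosome 3 from 23218610 to 23221243, ATG18B (AT4G30510) on chromosome 4 from 14905097 to 14907645, ATG18C (AT2G40810) on chromosome 2 from 17032412 to 17034600 and ATG18D (AT3G56440) on chromosome 3 from 20926001 to 20928993. ATG18E (AT5G05150) lies on chromosome 5 from 1524699 to 1526199, ATG18F (AT5G54730) on chromosome 5 from 22233789 to 22237370, ATG18G (AT1G03380) on chromosome 1 from 835767 to 841373 and ATG18H (AT1G54710) on chromosome 1 from 20416770 to 20421156. ATG2 (AT3G19190) lies on chromosome 3 from 6639639 to 6648870, and ATG9 (AT2G31260) on chromosome 2 from 13321833 to 13327496. ATG18C, ATG18G, ATG18H and ATG9 overlap an annotated gene on the opposite strand, over 60, 341, 234 and 164 exonic bases. The partners of ATG18G and ATG9 had at most 1 count in any library, that of ATG18C had 178 to 277 counts, and that of ATG18H is not analysed here. The libraries kept strand, but the strand setting of the counting is not given in the sources used here.

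Libraries held 21964283 to 23929531 counts, with overlapping ranges in the genotypes. LON1, the gene that separates the groups, had 671, 528 and 602 counts in the *atg5-1* replicates against 196, 126 and 95. Its log2 fold change was -2.101 (adjusted p = 0.000141, edgeR quasi-likelihood test, used throughout). ATG5, disrupted in both groups, was higher in *lon1-2atg5-1* by 0.98 (adjusted p = 0.00786, edgeR). It had 516, 520 and 436 counts against 1319, 930 and 636, a wide spread within *lon1-2atg5-1*. Across genes, pairs of *lon1-2atg5-1* replicates also differed more (chi-square per degree of freedom 12.1 to 31.8) than pairs of *atg5-1* replicates (3.83 to 5.65). The tissue label was checked with markers. The 6 shoot markers summed to 32930 to 37590 FPKM (counts scaled for gene length and library total) over all libraries, and the 4 flower markers to 0.61 FPKM or less. The 6 root markers summed to 1420 to 1556 FPKM in *atg5-1* and 1295 to 1483 in *lon1-2atg5-1*, a sum made up mostly by PYK10. Of these 6, EXPA7, EXPA18, CASP1 and CASP2, genes of root hairs and the Casparian strip, fell by 1.37 to 1.80 on the log2 scale, while the nitrate transporter gene NRT2.1 rose from 3 counts or fewer to between 25 and 38. The 4 seed storage genes all rose, from a sum of 0.14 to 0.36 FPKM in *atg5-1* to 5.88 to 12.4 in *lon1-2atg5-1*. Of the senescence markers, SAG13 rose by 3.56 on the log2 scale and SAG12, the defining late marker, had 0 or 1 counts. The part of these tissue and stage markers in the results below was not tested, and in whole seedlings fewer cells of a type and less RNA per cell cannot be told apart.

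Transcript levels per length ranked the family in nearly the same way in both genotypes. In *atg5-1*, ATG18A was the highest at 23.7 ± 1.16 FPKM (mean ± SD, n = 3 here and below), followed by ATG18G at 20.1 ± 1.23. ATG2 (13.9 ± 0.56), ATG18H (12.9 ± 0.27), ATG18F (12.2 ± 0.53), ATG18B (12.1 ± 0.76) and ATG9 (11.6 ± 1.00) came next, and each overlapped its neighbour in this order, so they are not ranked among themselves. ATG18C, at 6.67 ± 0.27 FPKM, and ATG18D, at 2.88 ± 0.26, stood below with no overlap. In *lon1-2atg5-1* the outer places were the same, with ATG18A at 18.9 ± 0.95, ATG18G at 13.6 ± 1.105, ATG18C at 5.07 ± 0.37 and ATG18D at 2.76 ± 0.13 FPKM, and the 5 genes between them again overlapped, with means of 7.90 to 9.16 FPKM. ATG18E had 0 counts in all 6 libraries. A count of 0 allows up to 3 counts in a library, so ATG18E was not detectable at this depth, and it took no part in the tests.

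**Figure D1:**
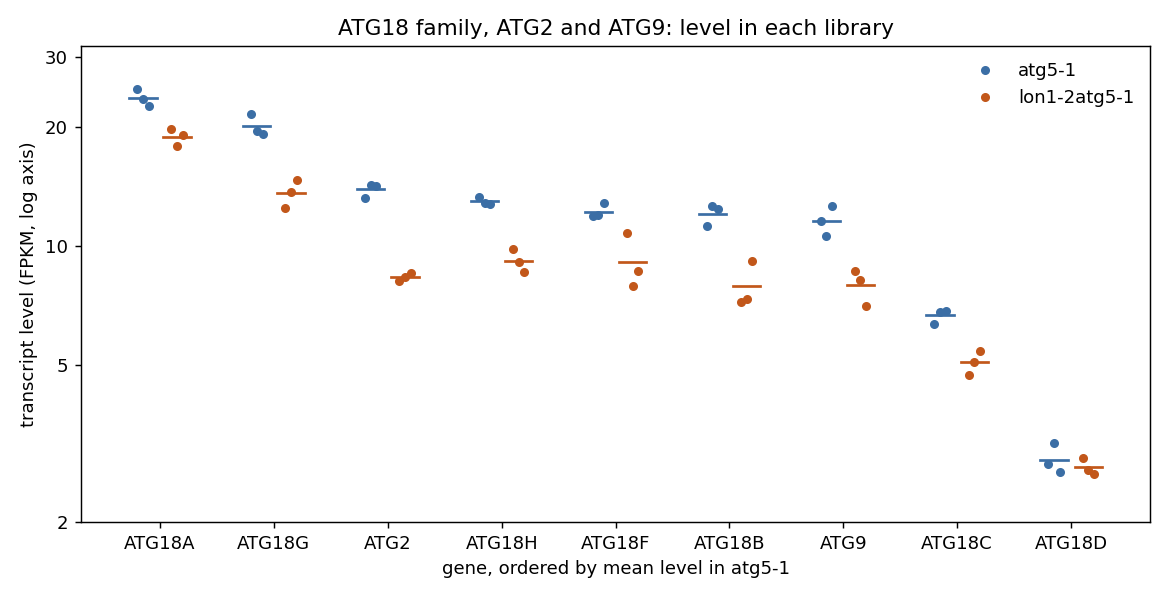
FPKM on a log axis for the 9 detected genes in each of the 3 *atg5-1* (blue) and 3 *lon1-2atg5-1* (orange) libraries, with a line at each mean. The genotypes do not overlap except for ATG18D, and ATG18A and ATG18G lead in both.

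The comparison asks how autophagy transcripts differ between plants in which ATG5 alone is disrupted and plants in which LON1 is disrupted as well. Of the 10 genes, 9 passed the filter on low counts, all of them well above it in both genotypes. In *lon1-2atg5-1*, 8 of the 9 fell (adjusted p under 0.05, Benjamini-Hochberg over all 20157 genes tested), and 0 rose by edgeR, by DESeq2 or by limma, with 0 also at an unadjusted p under 0.05. Across all genes tested, 25.8% fell and 27.7% rose at the same threshold, 53.5% in all. All *atg5-1* libraries were above all *lon1-2atg5-1* libraries in normalized counts for the same 8 genes, a pattern shown by 30.9% of all genes tested. The median log2 fold change of the 9 genes was -0.47, and that of all genes tested was -0.00034. Of the 10 genes, ATG2 alone also passed a fold change of 1.5, against 13.7% of all genes lower at that threshold. The study called genes at an unadjusted p with that fold change, by DESeq and with each mutant set against Col-0. With the same thresholds on the edgeR fit of this comparison, ATG2 was again the 1 member called. Of all genes, 14.3% were lower by these thresholds and 28.8% differed in either direction. ATG18B was just short of that fold change, at a ratio of 0.67.

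The gene of the lipid transfer protein, ATG2, was read 1906, 1985 and 1962 times in *atg5-1* against 1147, 1147 and 1277 times in *lon1-2atg5-1*. The libraries of each genotype lay close together, and the genotypes were far apart. ATG2 was at -0.71 ± 0.07 on the log2 scale (standard error, adjusted p = 0.000102, edgeR), a level 38.8% lower, and it was the strongest fall among the 10 genes. Of all genes tested, 12.2% had a lower fold change. ATG2 kept its call in all 14 alternative fits, with values from -0.75 to -0.67. The 3 genes whose centred log2 levels over the 6 libraries lay nearest to those of ATG2, by Euclidean distance, were AT1G33811, the ubiquitin-conjugating enzyme gene UBC10 and TCTP, at distances of 0.063, 0.065 and 0.070.

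ATG9, the vesicle-borne membrane protein, had 933, 828 and 982 counts in *atg5-1* against 684, 635 and 595. The lowest *atg5-1* library was above the highest *lon1-2atg5-1* library. It fell by 0.51 on the log2 scale (standard error 0.09, adjusted p = 0.00156, edgeR), or 29.8%.

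The most abundant member, ATG18A, had 1033, 941 and 904 counts in *atg5-1* against 799, 707 and 823. Every *atg5-1* library was above every *lon1-2atg5-1* library. ATG18A was at -0.30 ± 0.07 on the log2 scale (standard error, adjusted p = 0.00543, edgeR), a level 18.7% lower, the smallest log2 fold change in size of the 8 genes that fell. The 95% interval of ATG18A, from -0.45 to -0.15, lay above that of ATG2, from -0.86 to -0.55, although the difference between the genes was not itself tested. A pair of genes whose products act on ATG18A was read beside it, and both are named after their values were seen. BAK1, a receptor kinase that phosphorylates ATG18A, fell by 0.28 on the log2 scale (adjusted p = 0.0121, edgeR). WRKY33, a defence transcription factor that binds ATG18A, had 1348, 1409 and 1440 counts in *atg5-1* against 4773, 1348 and 1755. Its high value came from *lon1-2atg5-1* replicate 1, and it did not pass the test (log2 fold change 0.90, adjusted p = 0.0895, edgeR).

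ATG18B, the FRRG member expressed in these seedlings, had 444, 482 and 475 counts in *atg5-1* against 279, 279 and 378. Replicates 1 and 2 of *lon1-2atg5-1* were alike and replicate 3 was higher, yet still below every *atg5-1* library. ATG18B was at -0.58 ± 0.12 on the log2 scale (standard error, adjusted p = 0.00479, edgeR). It passed the test whichever library was left out, at -0.72 when *lon1-2atg5-1* replicate 3 was dropped and at -0.49 when replicate 1 was.

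The exonic match of highest identity for ATG18C was ATG18D, with 85.8% identity over 636 bases, so ATG18C and ATG18D were read together. ATG18C had 239, 248 and 248 counts in *atg5-1* against 173, 183 and 213, with no overlap. It was lower, at -0.36 ± 0.11 on the log2 scale (standard error, adjusted p = 0.0211, edgeR), but the call was lost in 4 of the 6 fits that left out a library, with adjusted p-values up to 0.0703. ATG18D had 139, 152 and 128 counts against 141, 129 and 137, so the groups overlapped. Its log2 fold change was -0.04 with a 95% interval from -0.31 to 0.24 (adjusted p = 0.815, edgeR), which leaves room for a fall as large as that of ATG18A. Without *atg5-1* replicate 2 the sign turned, to 0.05.

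The ratio of ATG18D to ATG18C counts was chosen for comparison after these values were seen. By library it was 0.582, 0.613 and 0.516 in *atg5-1* against 0.815, 0.705 and 0.643. All *lon1-2atg5-1* values were above all *atg5-1* values, which is a description with no p-value, since the ratio was picked for this difference. At 90% identity over 100 bases, no exon of the 10 genes matched a gene elsewhere in the genome. Matches to the opposite-strand genes that overlap ATG18C, ATG18G, ATG18H and ATG9 were left out of this count.

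The long members all fell. ATG18G had 2063, 1812 and 1780 counts in *atg5-1* against 1173, 1260 and 1470. ATG18H had 1065, 996 and 989 counts against 770, 700 and 717. ATG18F had 842, 818 and 877 counts against 749, 538 and 637. No genotypes overlapped, and ATG18H varied least of these genes within each genotype. ATG18G was at -0.53 and ATG18H at -0.47 on the log2 scale (standard errors 0.09 and 0.06, adjusted p = 0.00137 and 0.000329, edgeR). ATG18F was at -0.40 (standard error 0.10, adjusted p = 0.0125, edgeR). *lon1-2atg5-1* replicate 1 was the highest of its group for ATG18F and the lowest for ATG18G, and without *atg5-1* replicate 3 the adjusted p of ATG18F was 0.0519.

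**Figure D2:**
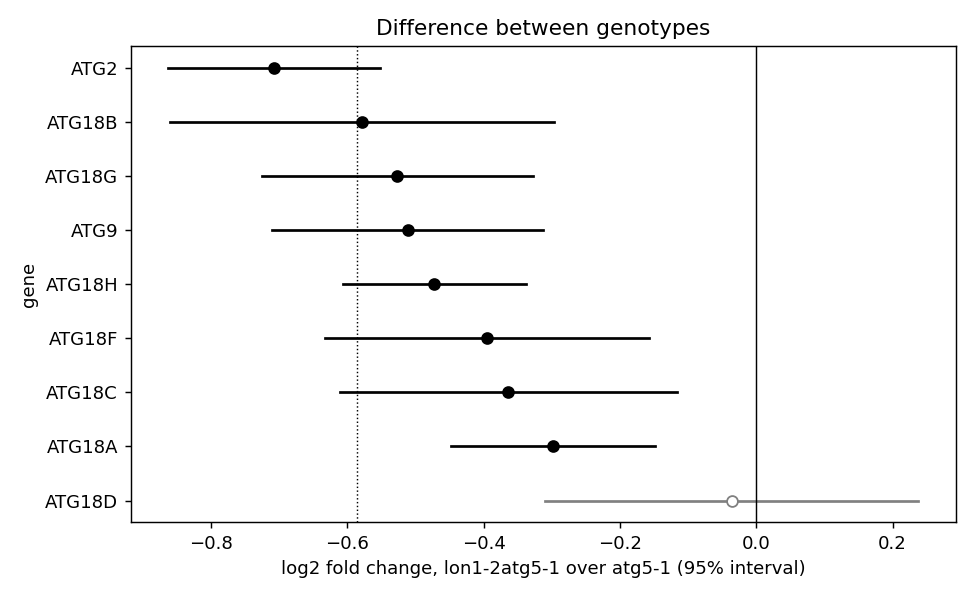
Log2 fold change of *lon1-2atg5-1* over *atg5-1* for the 9 tested genes, with 95% intervals of the quasi-likelihood fit. Filled points passed an adjusted p of 0.05, the open point (ATG18D) did not, the solid line is no change and the dotted line is a level 1.5-fold lower, which only the point of ATG2 lies beyond.

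The makeup of the ATG18 family was compared as shares of its summed level. ATG18F, ATG18G and ATG18H together gave 49.96% ± 0.87 of the summed ATG18 FPKM in *atg5-1* and 47.98% ± 1.115 in *lon1-2atg5-1*. By library the shares were 50.7%, 49.0% and 50.1% against 48.9%, 48.2% and 46.8%, so the groups lay next to each other without overlap. The share of ATG18A was 26.2% ± 0.92 against 28.4% ± 0.69, and that of ATG18D 3.18% ± 0.28 against 4.15% ± 0.23, also without overlap. Each of these 3 differences had an exact two-sided permutation p = 0.1, the smallest that 3 against 3 libraries can give, and p = 0.267 when adjusted over the 8 shares tested. The shares of ATG18B, ATG18C, ATG18F, ATG18G and ATG18H overlapped between the genotypes.

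**Figure D3:**
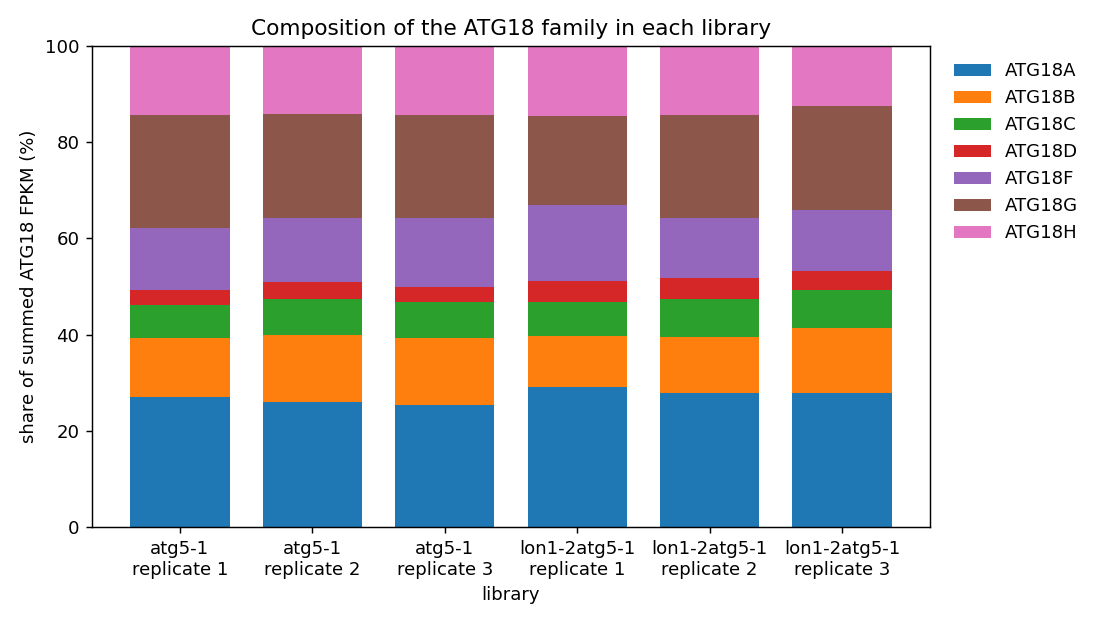
Share of the summed ATG18 FPKM (%) taken by each of the 7 detected ATG18 genes in every library. ATG18A took 25.3% to 27.1% in *atg5-1* and 28.0% to 29.2% in *lon1-2atg5-1*, and ATG18D 2.99% to 3.51% and 3.89% to 4.30%.

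The genes that act around the ATG18 proteins were read from 5 lists of 36 genes, all of which passed the filter. 26 of the 36 fell and 0 rose by edgeR (0 by DESeq2 and limma, and 1, FAB1D, at an unadjusted p under 0.05), with a median log2 fold change of -0.33. Across all genes tested, 25.8% fell and 27.7% rose at the same threshold, and the median was -0.00034. The counts of single lists below stand beside the same shares. All 6 genes of the phosphatidylinositol 3-kinase complex, which makes the lipid that ATG18 proteins bind, fell, with log2 fold changes from -0.52 to -0.28. Of 5 genes of the FAB1 complex, which turns that lipid into its doubly phosphorylated form, 2 fell and the median was -0.17. FAB1D, named after its values were seen, was at 0.19 (adjusted p = 0.0836, edgeR), and with *lon1-2atg5-1* replicate 2 left out it passed the test at 0.27. In the ATG1 kinase complex, which starts the process, 7 of 8 genes fell, with ATG101 the lowest at -0.94.

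The ATG8 family covered the widest range. 6 of its 9 genes fell, 5 of them past the fold change of 1.5, with ATG8H at -1.49, ATG8A at -0.81 and ATG8F at -0.88 on the log2 scale, and 3 did not pass the test. Of all genes tested, 25.8% fell, and 13.7% fell past that fold change. Of 8 conjugation genes other than ATG5, 5 fell, and ATG12A was the lowest at -0.86. Its paralog ATG12B, named after its values were seen, was the highest of the 36 genes at 0.31. It did not pass the test (adjusted p = 0.1025, edgeR). The ATG18 genes, with values from -0.58 to -0.04, thus lay in a narrower range than the ATG8 genes, a difference that was not tested.

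**Figure D4:**
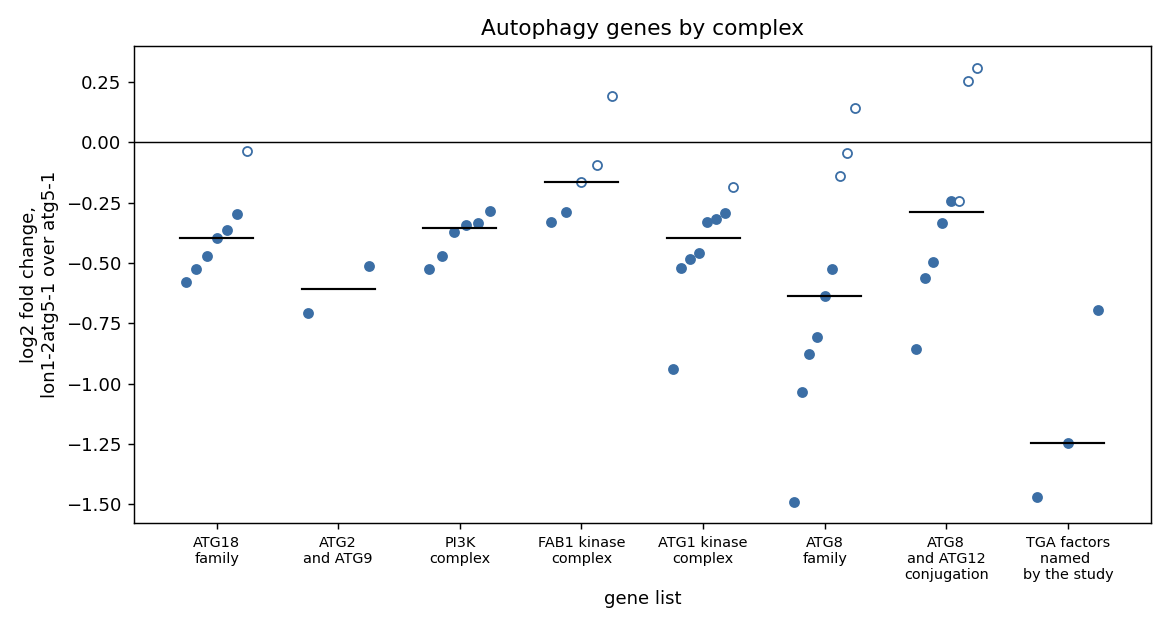
Log2 fold change of *lon1-2atg5-1* over *atg5-1* for each gene, grouped by complex, with a line at each list's median. Filled points passed an adjusted p of 0.05 and all of them lie below 0, and the ATG18 points lie between -0.58 and -0.04.

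The transcription factors TGA1, TGA9 and TGA10, which the study links to the ATG8 genes, bind the letters TGACG. The study had already reported these factors, and ATG2, as lower in *lon1-2* than in Col-0, so they were not picked without regard to their direction. In the present comparison all 3 factors fell, to -0.69, -1.47 and -1.25 on the log2 scale (adjusted p = 0.000208, 6.63e-05 and 0.000373, edgeR), where 25.8% of all genes tested fell. TGACG, searched on both strands in the 300 bases before each annotated gene start, was present for 2 of the 10 genes, ATG2 and ATG18H, against 21.3% of 27443 promoters of the same length. The G-box CACGTG was present for 1, ATG18C, against 7.1%. These matches are letters in a window, at about the rate of all promoters. The promoter of ATG2, the gene with the strongest fall, runs over chr3:6639339-6639638 on the plus strand of TAIR10.1, and its TGACG, in capitals, begins 126 bases before the gene start.
ATG2 promoter: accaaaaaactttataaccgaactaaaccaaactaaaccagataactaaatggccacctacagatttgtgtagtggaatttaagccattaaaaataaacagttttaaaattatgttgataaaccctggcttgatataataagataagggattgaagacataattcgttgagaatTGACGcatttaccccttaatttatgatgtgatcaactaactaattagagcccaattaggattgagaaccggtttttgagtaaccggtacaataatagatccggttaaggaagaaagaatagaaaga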

How the data were processed

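RNA of 3 *atg5-1* and 3 *lon1-2atg5-1* seedling samples, grouped by their titles, was analysed. The authors trimmed paired reads of stranded mRNA libraries with Trimmomatic 0.36, aligned them with HISAT2 2.2.1.0 and deposited raw counts per gene from htseq-count and FPKM values credited to cufflinks. The submitters' processing notes name TAIR10. The gene length implied by each count and FPKM equalled the exonic length in the RefSeq annotation of TAIR10.1 for 23819 of 23819 genes with a count (within 0.5 bases), so coordinates and sequences were read from that assembly.

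Counts were filtered with filterByExpr, given TMM factors and fitted for genotype in edgeR 4.0.16 (R 4.3.3), with quasi-likelihood F tests and Benjamini-Hochberg adjustment. Each standard error was taken as the size of the log2 difference divided by √F. Shares of FPKM were compared with exact permutation tests (scipy 1.17.1). Exons were compared with BLAST 2.17.0. DESeq2 1.42.0, limma 3.58.1 on log2(FPKM + 1) and log2(FPKM + 0.1), other scalings and filters, the replicate block and each library left out were the alternatives. The model fits were also run on simulated counts with few changed genes and the same spread in both genotypes. These data differ from that setting on both points, so the run does not give their error rate. Figures were drawn with matplotlib 3.10.9.

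All 10 genes are named, and of each other list the called genes (adjusted p under 0.05) that also differed over 1.5-fold, at most 3 a list by adjusted p. BAK1, WRKY33, FAB1D and ATG12B fall outside this rule. Tissue markers are given to check the labels. Likeness to ATG2 is the Euclidean distance between centred log2 CPM (prior count 2). The design calls the samples biological triplicates and says no more of their cultures. The members and lists were chosen with earlier results of these data known. Protein sequences were not used here.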

Additional observations from a re-analysis of the deposited data

How the results depend on the processing

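Of the 8 genes that fell, ATG18A, ATG18B, ATG18G, ATG18H, ATG2 and ATG9 passed the test in all 14 alternative fits, and the count was 8 under each alternative that kept all libraries and the threshold. With a library left out it ranged from 6 to 8, the lowest being without *atg5-1* replicate 3, where ATG18C and ATG18F were lost, and the log2 fold change of ATG18D ranged from -0.086 to 0.047, turning sign without *atg5-1* replicate 2. With a fold change over 1.5 as well, 1 of the 10 genes was lower, at an adjusted or an unadjusted p under 0.05, and 2766 or 2873 of all genes were lower and 2822 or 2930 higher, against 5206 and 5575 without it. Left-out libraries gave 4143 to 5581 lower and 4636 to 5955 higher genes, 22 to 25 lower and 0 to 1 higher among the other autophagy genes, and a difference of -2.46 to -1.37 percentage points in the share of ATG18F to ATG18H. Samples with the same replicate number did not deviate together (correlations of -0.037, -0.12 and -0.0099), and with the replicate number as a block 8 of the 10 genes were lower, as were 4867 of all genes, and no call of a member changed. ATG18E had 0 counts at this depth, and ATG18D had the fewest counts of the tested members, 128 to 152 in a library. The tests of shares were limited by 3 libraries a genotype.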
